A study of Bos taurus with 12 samples.

Results

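bta-miR-1271 is a bovine microRNA (miRNA), a short RNA that guides silencing complexes to messenger RNAs with matching sites, and it was followed here in granulosa cells of ovarian follicles. It was 1 of 755 mature miRNA names in the deposited counts and was listed with 1 precursor, so its reads were counted at a single entry. It was picked out because its level had been seen to differ between the groups, namely between the days in both follicle classes and between the classes at day 7. Its levels and fold changes are therefore given as a description, without a test.

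The cells came from Simmental heifers whose estrous cycles had all been synchronized with cloprostenol, a prostaglandin F2α analogue, and buserelin, a GnRH analogue. Heifers were slaughtered at day 3 or at day 7 of the cycle, and their follicles were classed by diameter as subordinate follicles (SF) or dominant follicles (DF), which gave 4 groups of 3 biological replicates. The diameter limits were not the same on both days, and follicular contents were pooled by size class before the granulosa cells were collected. The study's methods give follicle numbers by class and day, with many more SF than DF follicles and with only as many DF follicles at day 7 as there were DF libraries of that day. How follicles and heifers were divided among the libraries, and the ages, are not given in the sources used here, and p-values measure the spread between these libraries.

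During a follicular wave several follicles grow together, and granulosa cells of the follicle that becomes dominant gain the capacity to make much estradiol, while the subordinate ones regress. A miRNA finds its targets mainly through its seed, the bases at positions 2 to 8 from its 5′ end. miR-1271 has the same seed as miR-96, so both are predicted to bind largely the same messenger RNAs, among them that of FOXO1, a transcription factor of granulosa cells. miR-96 itself is made from a cluster with miR-183 and miR-182, and the seed of miR-182 is nearly the same. In the RefSeq annotation of the assembly ARS-UCD2.0 the miR-1271 gene lies within ARL10, a gene for an ARF-like GTPase, while the genes of the other three miRNAs lie within no other gene. The counts were made on another assembly (UMD 3.1), so no coordinates are given.

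The reads assigned to known miRNAs ranged from 160418 to 405129 per library, with a median of 297448.5. All 12 libraries contained bta-miR-1271, with between 34 and 1240 reads. The files hold miRNAs only, so the granulosa label could not be checked against messenger RNA markers. bta-miR-202, a miRNA abundant in gonads, was found in every library, at 2213 to 3673 normalized counts in the 9 libraries of SF and of DF at day 3 and at 364 to 976 in those of DF at day 7. A normalized count is the raw count divided by a median-of-ratios size factor of the library.

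At day 3 the level of bta-miR-1271 was high and variable in both follicle classes. In SF the 3 libraries had 815, 434 and 339.6 normalized counts, a mean of 529 ± 252 (SD, n = 3). In DF they had 932, 438 and 193 normalized counts, a mean of 521 ± 376 (SD, n = 3). The ranges of the classes overlapped throughout, with the highest and the lowest library of the day both from DF.

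At day 7 every library had a lower level than all day 3 libraries of the same class. The SF libraries had 261, 139.6 and 109 normalized counts, a mean of 169.9 ± 80.4 (SD, n = 3). The DF libraries had 67.6, 56.6 and 68.4 normalized counts, a mean of 64.2 ± 6.61 (SD, n = 3), which made DF at day 7 the lowest and the most even of the 4 groups. As shares of all miRNA reads these levels corresponded to 0.355%, 0.177% and 0.0844% in DF at day 3 and to 0.0256%, 0.0212% and 0.0233% in DF at day 7. The lowest of these shares rested on 34 reads, with a 95% Wilson interval of 0.0152% to 0.0296%, and the highest on 1240 reads, with an interval of 0.336% to 0.375%. Such intervals cover counting error only, since reads copied from the same molecule by PCR were not told apart. By raw count bta-miR-1271 ranked between 36 and 72 in the DF libraries of day 3 and between 120 and 123 in those of day 7, where 293 to 333 miRNAs had reads. In SF it ranked between 41 and 60 at day 3 and between 67 and 104 at day 7.

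**Figure D1:**
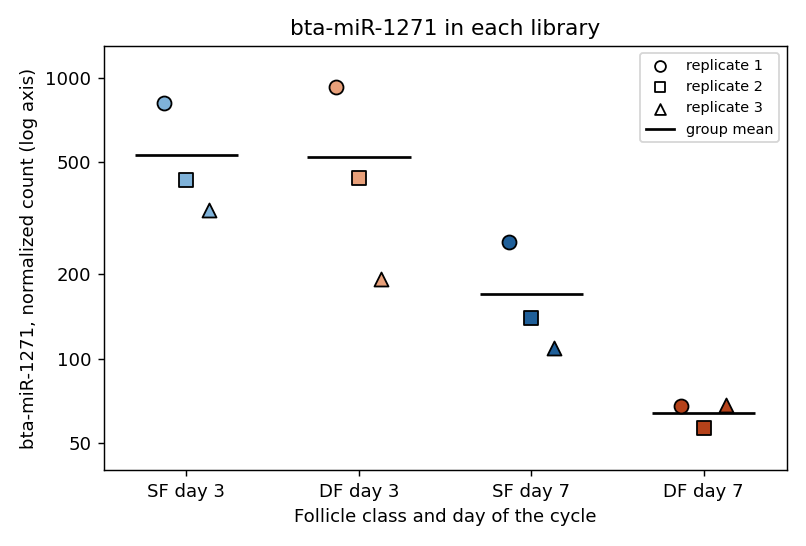
Normalized counts of bta-miR-1271 (log axis) in the 12 libraries by follicle class and day, with replicates as symbols and group means as lines. The libraries of day 3 overlap between SF and DF (193 to 932). The SF libraries of day 7 (109 to 261) lie below those of SF at day 3 and overlap with DF at day 3. The DF libraries of day 7 lie lowest (56.6 to 68.4).

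In the order of the group means, SF and DF at day 3 differed by less than the spread of their libraries. The next step, from DF at day 3 to SF at day 7, had an overlap. The lowest DF library of day 3 had 193 normalized counts and the highest SF library of day 7 had 261. Between the days in SF there was no overlap. The gap between the nearest libraries was 1.30 fold, less than the 2.40 fold range within SF at day 3. The last step, from SF to DF at day 7, had no overlap, with a gap of 1.60 fold against a range of 2.39 fold within SF at day 7. Between the days in DF the nearest libraries were 2.81 fold apart, against a range of 4.84 fold within DF at day 3. The libraries of the 3 pairs of groups without overlap were also fully separated in CPM, which divide by the library total alone, and after TMM normalization.

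To describe the temporal change, each class was compared between the days with edgeR, a count model fitted over all detected miRNAs. In DF bta-miR-1271 had a log2 fold change of -3.04 (standard error 0.45) at day 7 against day 3, an 8.21 fold lower level, and the 3 libraries of day 7 lay below all 3 of day 3. Such a separation in this direction was found for 25% of the 360 miRNAs tested in DF. Without DF replicate 1 of day 3, the library with the highest level, the log2 fold change was -2.35. In SF the log2 fold change was -1.62 (standard error 0.34), a 3.07 fold lower level, again without overlap, and 7.12% of the 337 miRNAs tested in SF were separated in this direction. Among the 177 miRNAs of SF with a mean of at least 10 reads, none had a log2 fold change below that of bta-miR-1271, and their median was 0.04. In DF 7 of 192 such miRNAs had a lower value, and the median was 0.06. The temporal change in DF exceeded that in SF by a log2 difference of -1.37, with a standard error of 0.65, and this fell to -0.70 without DF replicate 1 of day 3.

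Between the follicle classes bta-miR-1271 had a log2 fold change of -0.03 (standard error 0.32) in SF against DF at day 3. Its sign rested on single libraries, since the value was 0.70 without DF replicate 1 and -0.49 without SF replicate 1. At day 7 the log2 fold change was 1.48 (standard error 0.35), a 2.79 fold higher level in SF, and all SF libraries lay above all DF libraries. For 22.6% of the 350 miRNAs tested at day 7 the libraries were separated in this direction. Of 188 miRNAs with a mean of at least 10 reads at day 7, 20 had a higher log2 fold change. These comparisons share libraries with those between the days, so the values are not independent of each other.

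The spread between replicates was wide in 3 groups and narrow in the last. It bears on how clearly groups differ, the reason for choosing bta-miR-1271, so it is also given as a description. On the log2 scale the SD of DF at day 3 was 1.13, and of 185 miRNAs with a mean of at least 10 normalized counts only bta-miR-6526, with 57.9, 308 and 108 normalized counts, had a larger SD there. The median SD of these miRNAs was 0.21 in that group. Counting alone would give bta-miR-1271 an SD of about 0.05 at its mean of 718 reads. In SF at day 3 and at day 7 its SD was 0.65 and 0.64, with 17 and 30 of the 185 miRNAs above it. In DF at day 7 its SD was 0.15, against 0.18 from counting alone, and 148 of the 185 miRNAs had a larger SD. Pooled over the groups, its SD of 0.73 was exceeded by 11 of the 185 miRNAs, and the median over all 185 was 0.34. In SF at both days and in DF at day 3 the libraries fell from replicate 1 to replicate 2 to replicate 3, but not in DF at day 7. Nothing in the labels ties a number to an animal. In the plot of spread against level bta-miR-1271 lies above nearly all miRNAs of a like level.

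**Figure D2:**
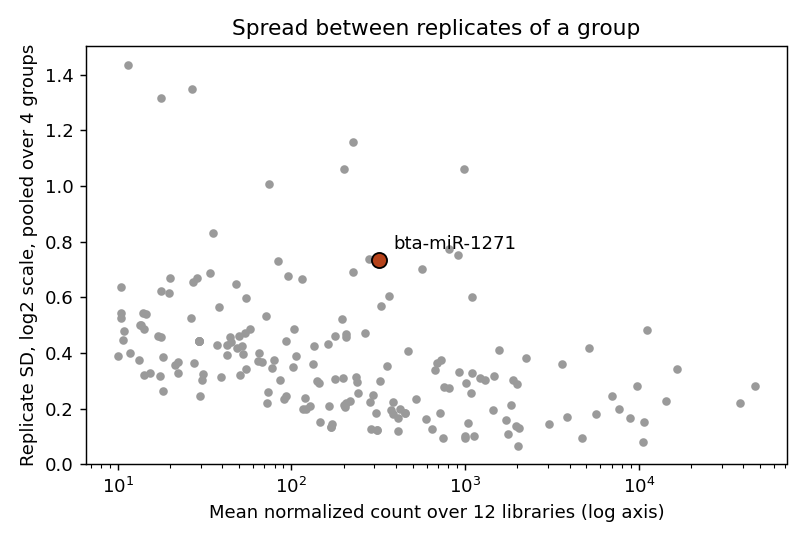
Each point is 1 of 185 miRNAs, with its mean normalized count over the 12 libraries (log axis) against its SD between replicates on the log2 scale, pooled over the 4 groups. bta-miR-1271, marked in red, has an SD of 0.73 against a median of 0.34.

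The miRNA with the same seed, bta-miR-96, was scarce. Its raw counts were 0, 1 and 0 reads in SF and 0, 1 and 2 reads in DF at day 3. At day 7 they were 1, 5 and 4 reads in SF and 12, 8 and 6 reads in DF. A count of 0 in these libraries allows a share of up to 0.00139%, the limit in SF replicate 3 of day 3. The highest counts thus lay in the group where bta-miR-1271 was lowest. In DF bta-miR-96 increased from day 3 to day 7 by 3.42 ± 0.84 on the log2 scale (estimate ± standard error, edgeR adjusted p = 0.00489). At so few reads the size of the estimate was loose, at 4.36 without DF replicate 3 of day 3 and 2.13 with a prior count of 2. Because DF at day 3 held 3 reads in all, the ratio of the pooled shares was also taken, and it was 10.8 with an exact 95% interval of 3.30 to 55.6 for counting error. In SF the estimate of 2.74 ± 1.19 did not pass (edgeR adjusted p = 0.427), and the ratio of shares was 7.80 with an interval of 1.11 to 338.

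Within a library the reads of both miRNAs can be set against each other without any scaling. Of the reads of bta-miR-1271 and bta-miR-96 together, bta-miR-1271 made up 99.9% in both SF and DF at day 3 when the 3 libraries were pooled. At day 7 it made up 99.7%, 96.5% and 96.6% in SF and 86.8%, 81.0% and 92.7% in DF. All DF libraries of day 7 lay below the other 9 libraries, and bta-miR-1271 still had most of the reads in each. Pooled over the DF libraries of day 7 its share was 87.9%, with a 95% Wilson interval of 82.9% to 91.6%. This interval covers counting error only, and the values of 81.0% and 92.7% lay outside it. Fewer reads of bta-miR-1271 and more of bta-miR-96 both enter this share, and the first is a value it was chosen for.

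The other products of the miR-183 cluster were more abundant than bta-miR-96. bta-miR-182 had 53.5, 82.1 and 26.9 normalized counts in SF and 61.6, 153 and 137 in DF at day 3. At day 7 it had 47.2, 589 and 119.9 normalized counts in SF and 346, 366 and 425 in DF. The DF libraries of day 7 lay above all of day 3, whereas SF replicate 2 of day 7 stood far above the others of its group. bta-miR-183 followed the same course, from 44.3 ± 13.8 to 135 ± 33.9 normalized counts in DF (SD, n = 3) between the days.

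All 3 miRNAs of the list formed by bta-miR-96, bta-miR-182 and bta-miR-183 increased in DF at day 7, where 24.4% of all tested miRNAs were differentially expressed in this direction. To count as differentially expressed, a miRNA needed a log2 fold change of 1 or more in size together with an edgeR p no higher than 0.05 and a false discovery rate (the adjusted p) no higher than 10%. In DF bta-miR-182 rose by 1.68 ± 0.30 on the log2 scale (edgeR adjusted p = 0.000449) and bta-miR-183 by 1.60 ± 0.29 (edgeR adjusted p = 0.000536). All 3 also passed in DF without any single library. In SF none of the 3 passed in edgeR, where 0.593% of all tested miRNAs were differentially expressed. The unadjusted edgeR p of each was under 0.05, as it was for 37 of the 337 miRNAs tested there. With DESeq2 neither bta-miR-182 nor bta-miR-183 passed in SF, and bta-miR-96 was given no adjusted p. The SF values of bta-miR-182 and bta-miR-183 were 2.24 and 2.65 (edgeR adjusted p = 0.151 and 0.144), and without SF replicate 2 of day 7 they were 0.59 and 0.76. Both passed without SF replicate 1 of day 7, at 2.72 and 3.11 (edgeR adjusted p = 0.000459 and 0.000528), and without SF replicate 3 of day 7, at 2.59 and 3.06 (edgeR adjusted p = 0.0938 and 0.0817). They also passed with no filter on low counts (edgeR adjusted p = 7.26e-13 and 1.54e-11), so that the call in SF rested on the filter and on single libraries. The difference between the day changes of DF and SF did not pass for any of the 3 miRNAs (edgeR adjusted p from 0.482 to 0.907), while 26.5% of 378 miRNAs passed for this difference.

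Between the classes at day 3, where bta-miR-1271 had like levels, bta-miR-182 and bta-miR-183 were lower in SF. The log2 estimates were -1.16 ± 0.30 for the first (edgeR adjusted p = 0.0101) and -1.45 ± 0.31 for the second (edgeR adjusted p = 0.0019), while 1.79% of the 335 miRNAs tested were differentially expressed in this direction. Neither passed in a fit over all 12 libraries (edgeR adjusted p = 0.418 and 0.358), and bta-miR-182 did not pass without SF replicate 3 or without DF replicate 2. The study had already named bta-miR-183 as decreased in SF at day 3 from these libraries, so its p here is not separate support. At day 7 none of the 3 passed, against 18.3% of all tested miRNAs lower in SF. The log2 fold changes in SF against DF were then -1.43 for bta-miR-96, -0.49 for bta-miR-182 and -0.31 for bta-miR-183. bta-miR-96 did pass there with scaling by library size alone (-1.60, edgeR adjusted p = 0.0938) and without DF replicate 3 of day 7 (-1.76, edgeR adjusted p = 0.0936). Without SF replicate 2 of day 7, bta-miR-182 and bta-miR-183 did pass, with -2.12 and -2.17 (edgeR adjusted p = 0.00244 and 0.00119). The plot of the estimates shows bta-miR-1271 on the other side of 0 from these miRNAs in both temporal comparisons.

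**Figure D3:**
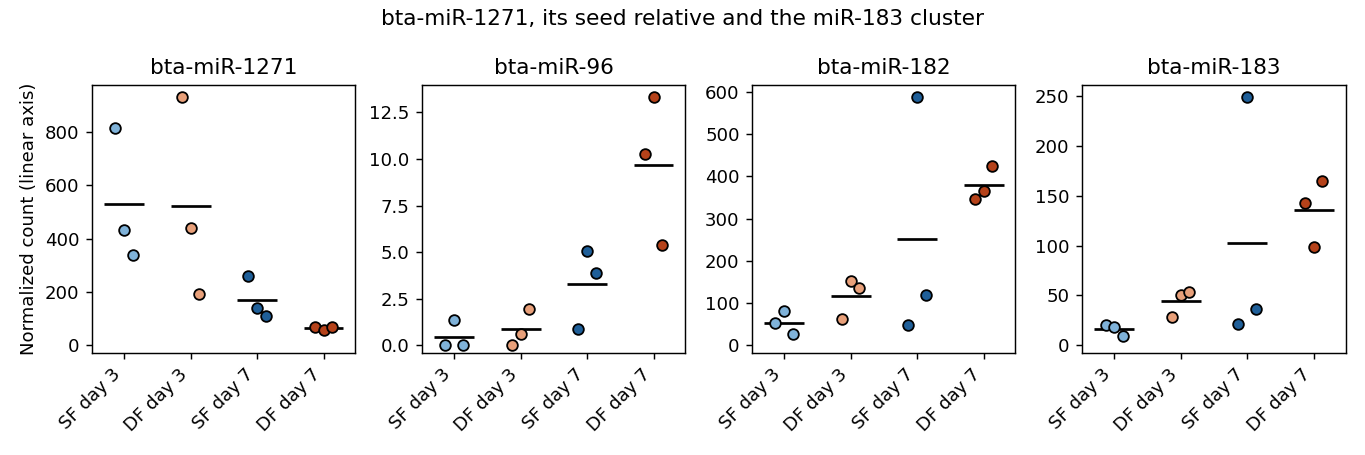
Normalized counts (linear axes, each with its own range) of bta-miR-1271, bta-miR-96, bta-miR-182 and bta-miR-183 in the 12 libraries, with group means as lines. bta-miR-1271 is lowest in DF at day 7 (56.6 to 68.4), where bta-miR-96 has its highest mean (9.66), and SF replicate 2 of day 7 stands out for bta-miR-182 at 589.

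**Figure D4:**
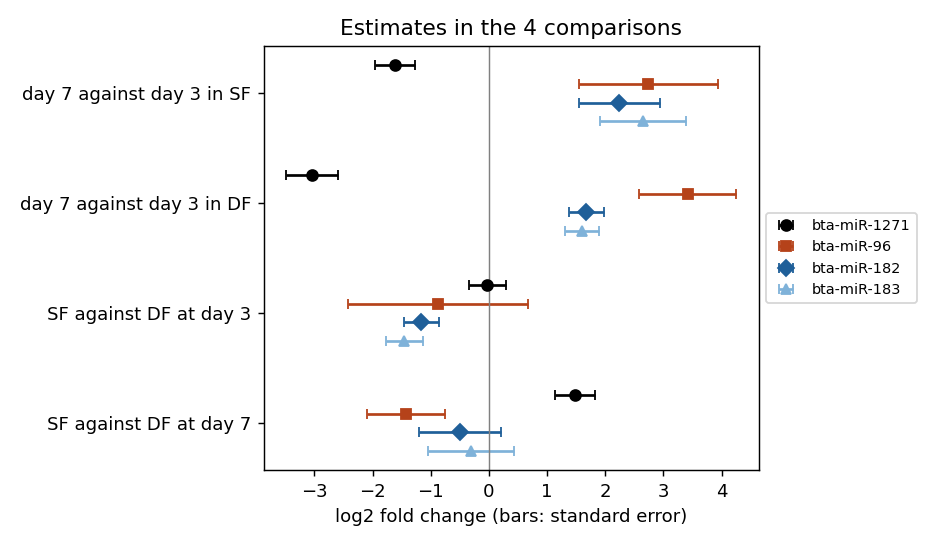
Log2 fold changes with standard errors of bta-miR-1271 and the 3 related miRNAs in the 4 comparisons. bta-miR-1271 lies at -1.62 and -3.04 between the days in SF and DF, where the others lie between 1.60 and 3.42.

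4 further miRNAs were named by the study beside bta-miR-1271 as differentially expressed in SF between the days. Since they were picked on these libraries, their values are given without a test. In SF the log2 fold changes of day 7 against day 3 were -0.94 for bta-miR-100, -0.95 for bta-miR-424-5p, -0.95 for bta-miR-2285k and 1.89 for bta-miR-155. The decreases among them were each under 1 in size, the limit used here and in the study. With -1.62, bta-miR-1271 had the largest decrease of the group. In DF the same order gave 0.60, -1.01, -3.26 and 7.23. bta-miR-2285k, a miRNA of a large ruminant family, thus lay close to bta-miR-1271 in DF, and bta-miR-100, a relative of miR-99, had opposite signs in the 2 classes. bta-miR-155, known from activated immune cells, had 103 ± 18.9 and 26.1 ± 7.85 normalized counts in SF and DF at day 3 and 378 ± 210 and 3906 ± 1176 at day 7 (SD, n = 3).

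The miRNAs with the most similar pattern were sought among 184 others with a mean of at least 10 normalized counts, by the Pearson correlation of log2 values (normalized count + 1) over the 12 libraries. These libraries fall into 4 groups and share their size factors, so the correlation largely follows the group means and is given as a description. The 5 highest were bta-miR-99b (r = 0.91, Spearman's rho = 0.96), bta-miR-2285k (r = 0.91, rho = 0.96), bta-miR-2285f (r = 0.90, rho = 0.91), bta-miR-1343-3p (r = 0.86, rho = 0.96) and bta-miR-374a (r = 0.85, rho = 0.80). The sixth lay close behind at 0.84, and the median over all 184 was -0.03. The 3 lowest were bta-miR-155 (r = -0.87), bta-miR-29a (r = -0.87) and bta-miR-21-3p (r = -0.87), whereas bta-miR-182 and bta-miR-183 had r = -0.75 and r = -0.71.

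Among the miRNAs most like bta-miR-1271 the size of the decrease in DF varied. It was near that of bta-miR-1271 in bta-miR-2285k and bta-miR-1343-3p and smaller in the others. bta-miR-99b, among the most abundant miRNAs here, had 23517 ± 3743 normalized counts in DF at day 3 and 7417 ± 2201 at day 7 (SD, n = 3). bta-miR-2285k had 253 ± 80.0 and 27.1 ± 9.44, and bta-miR-2285f had 39.8 ± 12.5 and 20.1 ± 0.53 normalized counts in the same groups. For bta-miR-1343-3p the values were 247 ± 37.5 and 26.1 ± 8.85, and for bta-miR-374a 126 ± 16.7 and 51.9 ± 9.40.

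**Figure D5:**
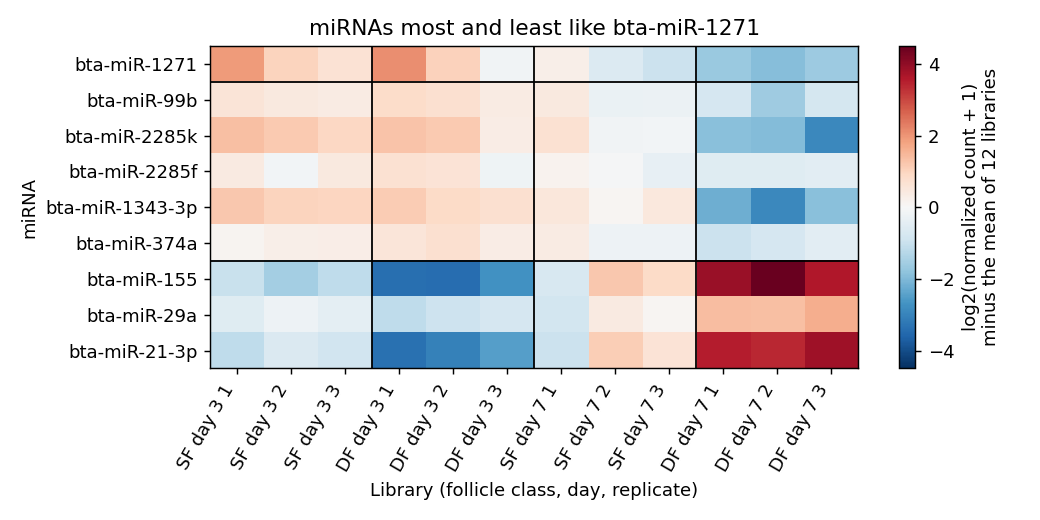
Log2(normalized count + 1) minus the mean of the 12 libraries for bta-miR-1271 (top row), the 5 miRNAs most like it and the 3 least like it (bottom rows), with libraries as columns in their 4 groups. The first 6 rows are lowest in DF at day 7 and the last 3 are highest there.

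DF at day 7, the group with the least bta-miR-1271, also stood apart in miRNAs that mark other cell types. All 4 leukocyte miRNAs (bta-miR-142-3p, bta-miR-142-5p, bta-miR-150 and bta-miR-223) increased in DF from day 3 to day 7, where 24.4% of all tested miRNAs did, and 3 of the 4 were lower in SF than in DF at day 7, where 18.3% were. Their summed level was 116 to 162 normalized counts in DF at day 3, 783 to 8636 in DF at day 7, 108 to 220.2 in SF at day 3 and 184 to 705 in SF at day 7. bta-miR-142-3p was at 0 in all libraries of day 3 and at most 6.65 normalized counts in any library. bta-miR-223 was scarce too, with 0, 1 and 1 reads in DF at day 3 and 6, 5 and 5 at day 7. The sums thus came almost wholly from bta-miR-142-5p and bta-miR-150. Of the vessel wall and theca miRNAs, 3 of 4 increased in DF, against the same 24.4% (bta-miR-126-3p, bta-miR-143 and bta-miR-145), from a sum of 2307 to 3983 to a sum of 6868 to 14351 normalized counts. Of the 3 erythroid miRNAs none passed in DF between the days, and both that were tested at day 7, bta-miR-451 and bta-miR-486, were lower in SF, against the same 18.3%. In SF between the days no member of these lists passed in edgeR, where 0.593% of all tested miRNAs did. The unadjusted edgeR p was under 0.05 for 37 of the 337 miRNAs tested, and 3 members of the lists were among them. These were the leukocyte miRNAs bta-miR-142-5p, with a log2 fold change of 1.22, and bta-miR-150, with 1.06, and the erythroid bta-miR-451, with -0.94.

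Within DF at day 7 the leukocyte sum was 3110 in replicate 1, 8636 in replicate 2 and 783 in replicate 3, an 11.0 fold range. The other ranges there were smaller, at 2.87 fold for the erythroid sum and 2.68 fold for bta-miR-202. The vessel wall and theca sum had a 2.09 fold range and was highest in replicate 3. bta-miR-1271 lay between 56.6 and 68.4 normalized counts, a 1.21 fold range. Without replicate 2, the library with most leukocyte miRNAs and fewest reads, the log2 fold change of bta-miR-1271 in DF was -2.97. bta-miR-202, the gonad miRNA, decreased in DF, with a log2 estimate of -2.28 ± 0.29 (edgeR adjusted p = 1.93e-05), where 15.8% of all tested miRNAs decreased. In these bulk samples fewer cells of a type and less RNA per cell cannot be told apart, and the part of other cell types in the level of bta-miR-1271 in DF was not tested.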

How the data were processed

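Small RNA of 12 granulosa cell samples was sequenced by the authors, who used CASAVA 1.8.0 for base calling and cutadapt for trimming, mapped to the bovine assembly UMD 3.1 and counted known miRNAs of miRBase with miRDeep2. The deposited values are raw read counts per mature miRNA and precursor, without normalization. Groups and replicate numbers come from the sample labels.

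Mature names listed under several precursors can repeat the same reads, so the precursor entry with most reads stood for the name. For each comparison the 6 libraries concerned and the miRNAs detected in 2 or more replicates of either group were fitted in R 4.3.3 with edgeR 4.0.16 (quasi-likelihood F test, two-sided, median-of-ratios scaling, prior count 0.125, Benjamini-Hochberg adjustment over all tested miRNAs). The day difference between classes used all 12 libraries. Standard errors are the log2 fold change divided by the square root of F, an approximation. Alternatives included DESeq2 1.42.0, other scalings and filters, a replicate block and leaving out each library. The procedure was tested on simulated counts. No pair of replicates agreed within sampling noise (chi-square per degree of freedom at least 10.2).

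Named were bta-miR-1271, miRNAs related by seed or cluster, those the study names beside it, the 5 most and 3 least correlated, and marker miRNAs. The members and lists were chosen with earlier results of these data known. bta-miR-6526 was chosen after its values were seen.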

Additional observations from a re-analysis of the deposited data

How the results depend on the processing

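Alternatives were DESeq2, TMM scaling, library size alone, no filter and at least 10 reads in at least 3 samples. Others were a fit of all 12 samples, summed precursors, prior count 2, a replicate block and omitting each library. The log2 fold changes of bta-miR-1271 between the days and at day 7 kept their direction, as separated libraries must, so this is no test. Without single libraries they ranged from -3.49 to -2.35 in DF, -2.09 to -1.21 in SF and 1.05 to 1.71 for SF against DF at day 7. The value at day 3 ranged from -0.49 to 0.70, so its sign was not fixed, and the difference between the day changes ranged from -1.84 to -0.70. Library size alone moved the median log2 fold change of all miRNAs from -0.05 to -0.20 at day 7 and from 0.03 to -0.11 in SF.

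The numbers of differentially expressed miRNAs, which served as background, changed more. At day 3 there were 19, against 11 with DESeq2, 12 with the filter of 10 reads, 8 in the fit over all 12 samples and 10 to 21 without single libraries. In DF there were 145, against 92 with the filter of 10 reads. In SF there were 2, against 5 with DESeq2, 12 without a filter, 1 in the fit over all 12 samples and 0 to 20 without single libraries, the highest without SF replicate 1 of day 7 and 0 without SF replicate 1 or 2 of day 3 or SF replicate 2 of day 7. With the filter of 10 reads edgeR gave 0 in SF, where 25 of 183 miRNAs had an unadjusted p under 0.05. The counts of 0 without a library came with 25 or 26 miRNAs at an unadjusted p under 0.05. The causes were not tested. bta-miR-182 and bta-miR-183 passed in SF without a filter, and bta-miR-96 passed at day 7 with library size alone.

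At day 7 the estimate of SF against DF ranged from -2.12 to 0.019 for bta-miR-182 and from -2.17 to 0.19 for bta-miR-183 without single libraries, and the sign turned without SF replicate 1 for both and without SF replicate 3 for bta-miR-183 (0.10). Samples with the same replicate number deviated together by correlations of -0.12 to 0.14, so the numbers were not taken to pair samples. With the replicate block bta-miR-1271 had log2 fold changes of 0.14 and 1.39 in SF against DF at day 3 and day 7. They were -2.78 and -1.62 between the days in DF and SF, and -1.11 for the difference. In that order the standard errors were 0.17, 0.33, 0.32, 0.22 and 0.39, against 0.32, 0.35, 0.45, 0.34 and 0.65 without the block. With the block 7 miRNAs passed in SF between the days, among them bta-miR-182 (1.67) and bta-miR-183 (1.95). In the block fit at day 7 bta-miR-96, bta-miR-182 and bta-miR-183 also passed (-1.49, -1.27 and -1.15). The shallowest library held 34 reads of bta-miR-1271, which limits the precision of DF at day 7.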
